A study of Mus musculus with 2 samples.

Results

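The 10 genes described here carry the signal of the erythropoietin receptor, the receptor through which the hormone erythropoietin keeps red cell precursors alive. They were chosen by name for their place in the pathway, by a rule that used no measured value, though with earlier results of these data known. The receptor gene Epor, the kinases Jak2 and Lyn, the transcription factors Stat5a and Stat5b, the target genes Bcl2l1 and Pim1, and the inhibitors Cish, Socs3 and Sh2b3 were each found as 1 row of the gene tables, 10 of the 43346 mouse genes listed there, of which 21474 were annotated as protein-coding.

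RNA was measured in liver of healthy B6NCrl mouse embryos at embryonic day 11.5, with livers of male and female embryos pooled. There were 2 biological replicates of this 1 group, with 1 library each and no treatment, mutant or second stage. The pool of replicate 1 held 109 embryos, and the number in the pool of replicate 2 is not given in the sources used here. Each library was made by a SmartSeq protocol from 1 cell-equivalent of total RNA longer than 200 bases, with spike-in RNAs added, so each value is a level in pooled tissue measured from about as much RNA as a single cell holds. The assay is labelled as single-cell, while the source is tissue.

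At this stage the fetal liver is the main site where definitive red cells, the enucleated cells of fetal and adult blood, are made. Erythropoietin binds a pair of receptor chains that already hold the kinase JAK2. JAK2 then phosphorylates the receptor, STAT5 proteins dock there, are phosphorylated, and move to the nucleus, where they bind DNA at sites of the form TTCNNNGAA and switch on genes of survival and of feedback inhibition. Mouse embryos without the receptor die of anaemia in mid-gestation.

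The depth was a total expected count, the estimated number of reads, of 33289699 in replicate 1 and 32607453 in replicate 2. Levels are given as TPM, a relative abundance of transcripts scaled for length and depth, and TPM 1 was the level from which a gene counted as detected. Marker genes of red cells were detected in both libraries in 15 of 15 cases, with a summed TPM of 70909 in replicate 1 and 63301 in replicate 2, and those of hepatoblasts, the liver precursors, in 12 of 13 cases. For other cells of the tissue the numbers detected in both were 5 of 9 for megakaryocytes, 6 of 12 for macrophages, 4 of 8 for granulocytes and mast cells, 4 of 9 for stem and progenitor cells, 6 of 9 for endothelium, 7 of 9 for mesenchyme and 0 of 6 for lymphoid cells. Of 8 markers of heart muscle, which is not a liver cell type, 2 were detected in both libraries, 5 in replicate 2 only and 1 in neither. Summed marker levels differed between the libraries for macrophages, at 629 TPM in replicate 1 and 264 TPM in replicate 2, for mesenchyme, at 264 and 538 TPM, and for heart muscle, at 50.3 and 305 TPM. Not every marker followed the sum of its list. The macrophage markers Adgre1 and Mrc1 were higher in replicate 2. The mesenchyme markers Pdgfra, Pdgfrb and Des and the heart muscle marker Actc1 were higher in replicate 1. The sums therefore do not show a shift shared by all markers of a cell type. Among the macrophage markers Cd68, Cd163 and Vsig4 had a level of 0 in both libraries. The part of cell composition in the differences between the libraries below was not tested.

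The levels of the members ranged from 116 TPM to no read. Of the 10, 5 were detected in both libraries (Epor, Lyn, Stat5a, Stat5b and Pim1), 2 in replicate 1 only (Bcl2l1 and Sh2b3), 1 in replicate 2 only (Jak2), and Cish and Socs3 had no read in either. Among all protein-coding genes 27.3% were detected in both libraries, 9.68% in replicate 1 only, 7.07% in replicate 2 only and 55.9% in neither, and among all Ensembl genes 15% were detected in both. The summed TPM of the 10 members was 194 in replicate 1 and 196 in replicate 2, a mean of 195 ± 1.42 (SD, n = 2). This near-equal sum hid unequal parts. The receptor and kinases held 113 TPM in replicate 1 and 148 TPM in replicate 2, the STAT5 genes 47.4 and 40.4 TPM, the targets 25.4 and 7.24 TPM, and the inhibitors 8.29 and 0.23 TPM. With 1 group and 2 libraries no test could be made. All differences between libraries are differences between replicates, and those of the members are set beside those of all genes further on.

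**Figure D1:**
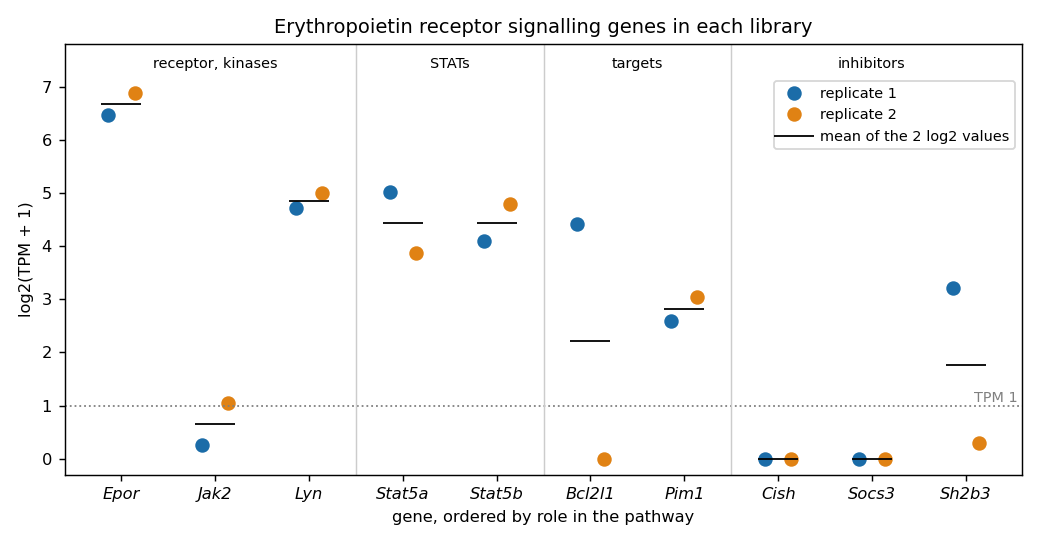
Level of each erythropoietin receptor signalling gene as log2(TPM + 1), with 1 point for replicate 1 (left, blue) and 1 for replicate 2 (right, orange) and a bar at the mean of the 2 log2 values. Epor stands above all other members in both libraries, Jak2 lies below the dotted line at TPM 1 in replicate 1 and just above it in replicate 2, and Cish and Socs3 lie at 0.

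Epor, on chromosome 9 at 21958897 to 21963506 on the minus strand (mm10), was the most abundant member in each library. It had 87.5 TPM from 4475 reads in replicate 1 and 116 TPM from 5916 reads in replicate 2, a mean of 102 ± 20.4 TPM (SD, n = 2). Replicate 2 was the higher by 1.33-fold in TPM, a direction that scaling by spike-ins did not keep. The deposited credibility intervals, 83.4 to 88.5 TPM in replicate 1 and 111 to 117 TPM in replicate 2, did not overlap. These intervals cover read counting and read assignment within a library and not the spread between embryo pools. By level Epor ranked 1746 of all genes in replicate 1 and 1291 in replicate 2. Its only annotated transcript, Epor-201, held all of its reads. In RNA of a whole tissue, fewer cells of a type and less RNA per cell cannot be told apart, so these levels do not give the receptor's RNA per red cell precursor.

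Epor held 45.1% of the members' summed TPM in replicate 1 and 59.4% in replicate 2, a mean of 52.2% ± 10.1 (SD, n = 2). It exceeded Lyn, the next member by mean TPM, by 3.46 times in replicate 1 and 3.78 times in replicate 2, and its lower value lay above the higher value of every other member. Against other genes of red cell precursors the ratio varied with the partner. Epor over Tfr2, a transferrin receptor that associates with the erythropoietin receptor, was 2.62 in replicate 1 and 2.5 in replicate 2. Epor over Klf1, an erythroid transcription factor, was 0.644 and 1.14, and over Gata1, the factor that activates Epor, 0.369 and 2.26.

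The start of Epor is shown because it is the highest member. The stretch covers chr9:21963552-21963776 on the minus strand (RefSeq, GRCm38.p6), from 200 bases before the annotated transcript start through the first 25 bases after it. Capitals mark the match to GATAA, the core recognised by GATA factors, which reads as TTATC on the strand shown and lies 54 bases before the start.

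Epor promoter: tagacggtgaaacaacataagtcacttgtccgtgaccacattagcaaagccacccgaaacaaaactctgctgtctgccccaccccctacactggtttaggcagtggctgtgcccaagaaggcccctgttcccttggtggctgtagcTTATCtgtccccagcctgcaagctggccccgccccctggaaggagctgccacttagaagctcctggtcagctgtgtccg

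Of 14 such windows of 300 bases, 250 before and 50 after a start, for the 9 members with an entry (all but Lyn), GATAA was found on either strand in 3, those of Epor, Cish and 1 of the starts of Bcl2l1. It was found in 25.4% of the 32851 promoter windows of all genes. CACCC, the core of sites bound by KLF factors, was found in 10 of the 14 windows and in 57.5% of all windows. A match of letters is a description and not a measured binding site.

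Jak2, the kinase that the receptor needs to signal, had the lowest mean TPM of the members read in both libraries, and its range overlapped with that of Sh2b3. On chromosome 19 at 29251828 to 29313080 on the plus strand, it had 0.19 TPM from 27 reads in replicate 1 and 1.08 TPM from 154 reads in replicate 2, with a mean of 0.635 ± 0.629 TPM (SD, n = 2). The credibility intervals were 0.129 to 0.271 TPM in replicate 1 and 0.901 to 1.24 TPM in replicate 2. Replicate 2 was 5.68-fold higher, and in it Jak2 only just reached the level called detected. Per length, Epor RNA exceeded Jak2 RNA 461 times in replicate 1 and 108 times in replicate 2. All reads of Jak2 were given to the transcript Jak2-201.

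The low level was not shared by the whole JAK family, the kinases that serve cytokine receptors. Jak1, which serves interferon and interleukin receptors, had 30.2 TPM in each library. This came from 2512 reads in replicate 1 and 4068 reads in replicate 2, so the equal level holds per length and not in reads. Tyk2 had 0.04 TPM in replicate 1 and 12.8 TPM in replicate 2, and Jak3, the kinase of lymphoid interleukin receptors, was unread in replicate 1 and had 5.05 TPM in replicate 2. Jak2 made up 0.624% of the family's TPM in replicate 1 and 2.2% in replicate 2, against 99.2% and 61.5% for Jak1. Of 331 protein-coding genes within 1.5-fold of the level of Jak2 in replicate 2, 152 (45.9%) were under TPM 1 in replicate 1. That band spans TPM 1 itself and can hold genes already under it in replicate 2. The share therefore does not measure how often a gene is missed.

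Lyn encodes a SRC family kinase that binds the erythropoietin receptor and contributes to STAT5 phosphorylation. On chromosome 4 at 3678115 to 3813122 on the plus strand, it had 25.3 TPM from 2513 reads in replicate 1 and 30.8 TPM from 3043 reads in replicate 2, a mean of 28.0 ± 3.89 TPM (SD, n = 2). Replicate 2 was the higher by 1.22-fold in TPM, though not when the libraries were scaled by spike-ins. Its transcript Lyn-201 held 96.9% of the gene in replicate 1 and 100% in replicate 2. Of the distinct windows of 100 bases in its transcripts, 7.9% also occur in the gene Gm11787, so part of its reads could have been assigned to either.

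Within the SRC family Lyn accounted for 51.2% of the summed TPM in replicate 1 and for 52.2% in replicate 2, a mean of 51.7% ± 0.737 (SD, n = 2). Yes1 had 18.1 TPM in replicate 1 and 7.83 TPM in replicate 2, and Fyn had 6.05 and 20.2 TPM, so the order of these broadly expressed relatives was opposite in the libraries. Lck, Fgr and Blk, relatives best known from myeloid and lymphoid cells, had no read in either library, and Src reached 0.2 TPM in replicate 2 alone.

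Of the other receptors that, like the erythropoietin receptor, work as pairs of identical chains, the growth hormone receptor Ghr had 2.06 TPM in replicate 1 and 19.7 TPM in replicate 2. The granulocyte factor receptor Csf3r had 8.23 TPM in replicate 1 and no read in replicate 2, and the prolactin receptor Prlr had none in either. In each library Epor was above all of these.

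**Figure D2:**
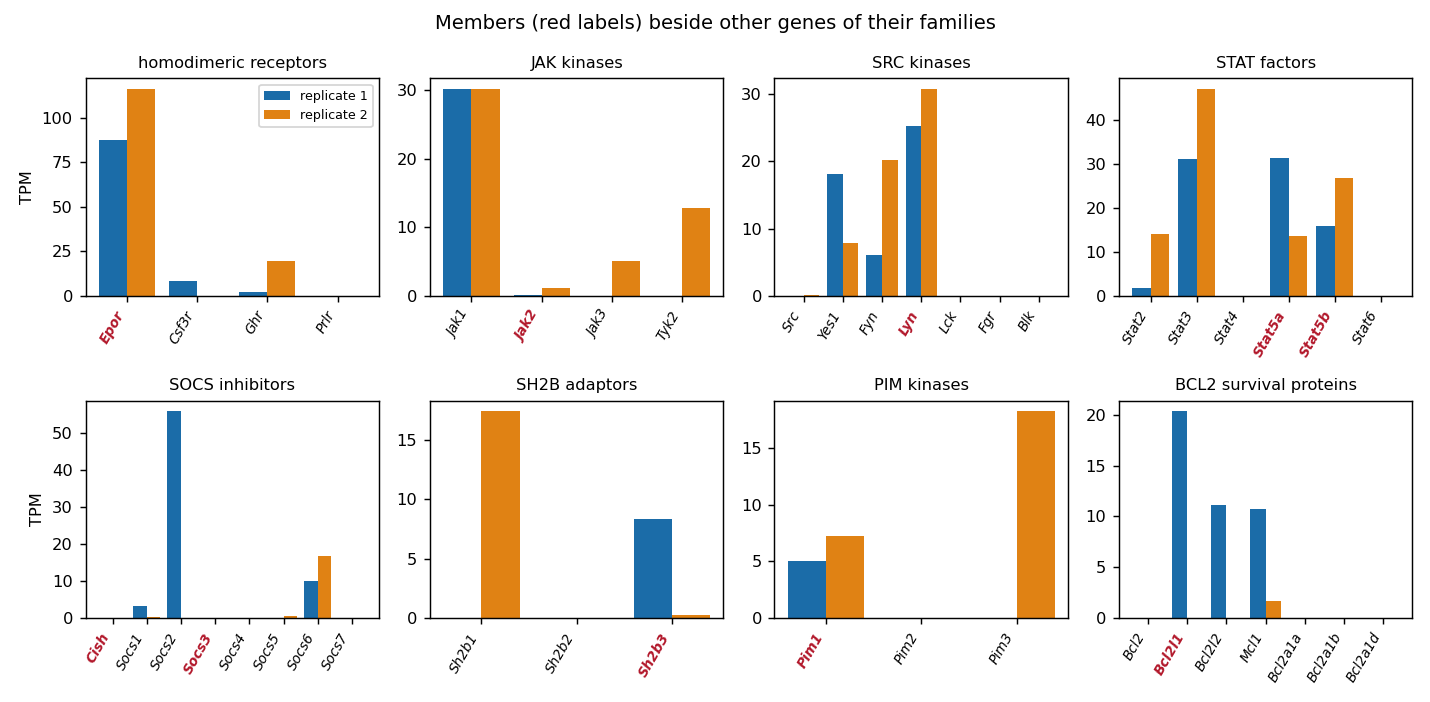
TPM of the members (red labels) and other genes of their families in replicate 1 (blue, left bar) and replicate 2 (orange, right bar), 1 panel per family with its own axis from 0. Epor, Jak1 and Lyn lead their families in both libraries, while the leading gene of the STAT, SOCS, SH2B, PIM and BCL2 survival families differs between the libraries.

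Stat5a and Stat5b encode the transcription factors that pass the signal to the nucleus, and can replace each other in much of this work. The genes lie side by side on opposite strands of chromosome 11, 8626 bases apart, Stat5a at 100859351 to 100885169 and Stat5b at 100780731 to 100850724 (mm10). Stat5a had 31.4 TPM in replicate 1 and 13.6 TPM in replicate 2, a mean of 22.5 ± 12.6 TPM (SD, n = 2). Stat5b had 16.0 TPM in replicate 1 and 26.8 TPM in replicate 2, a mean of 21.4 ± 7.62 TPM. The means of the pair lay closer together than either gene's replicates, and the order of the genes was opposite in the libraries, with Stat5a over Stat5b at 1.96 in replicate 1 and 0.507 in replicate 2.

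Their sum varied less than its parts. Together the STAT5 genes had 47.4 TPM from 4428 reads in replicate 1 and 40.4 TPM from 5138 reads in replicate 2, a mean of 43.9 ± 4.99 TPM (SD, n = 2), with replicate 1 the higher by 1.17-fold. The direction turned with the unit, since in CPM, expected counts scaled for depth and not for length, the sum was 133 in replicate 1 and 158 in replicate 2. The expected counts of the single genes were not whole, at 3081 and 1232 reads for Stat5a and 1347 and 3906 reads for Stat5b, while both sums were whole numbers. Reads that match the 2 genes alike were therefore divided between them by estimation.

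The coding sequences show how alike the genes are. Over 2291 aligned bases without a gap, 2080 were identical (90.8%), and the longest identical run was 324 bases. Of the distinct windows of 100 bases in the transcripts of Stat5a, 265 (3.44%) also occur in Stat5b, and these are 4.79% of those of Stat5b. The pair of lines that follows is the first stretch of 90 bases without a mismatch, coding bases 178 to 267 of the transcripts Stat5a-203 (chr11:100861770-100861859, plus strand) and Stat5b-201 (chr11:100804888-100804977, minus strand) in mm10. A read lying wholly within it holds no base that tells the genes apart.
Stat5a, most alike: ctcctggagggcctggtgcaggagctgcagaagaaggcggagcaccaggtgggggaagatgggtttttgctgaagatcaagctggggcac
Stat5b, most alike: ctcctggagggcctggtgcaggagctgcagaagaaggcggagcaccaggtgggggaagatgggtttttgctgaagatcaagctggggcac

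The least alike stretch lies directly before it, at coding bases 88 to 177, and is shown for contrast. It spans 2 exons, from chr11:100861425-100861769 in Stat5a and chr11:100804978-100808436 in Stat5b, with the intron left out. Capitals mark the 28 of 90 bases that differ, and a read that covers them can be told apart.
Stat5a, least alike: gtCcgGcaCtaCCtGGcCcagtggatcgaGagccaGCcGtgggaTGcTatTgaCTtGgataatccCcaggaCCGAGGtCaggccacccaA
Stat5b, least alike: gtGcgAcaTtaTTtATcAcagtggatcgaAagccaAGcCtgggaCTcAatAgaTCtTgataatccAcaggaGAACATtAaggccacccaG

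The estimated transcripts of the pair differed between the libraries as well. In replicate 1 the leading transcript of Stat5a was Stat5a-203, with 29.1 TPM from 3013 reads and 92.5% of the gene, and it had no read in replicate 2. In replicate 2 it was Stat5a-202, with 11.2 TPM and 82.3% of the gene, against 0.3 TPM in replicate 1. These transcripts start at different positions, 100860484 for Stat5a-203 and 100859656 for Stat5a-202. A short transcript of 617 bases, Stat5a-206, held 6.38% in replicate 1 and 17.6% in replicate 2. Stat5b-201 held all of Stat5b in replicate 2, with 26.8 TPM. In replicate 1 it had 8.19 TPM, and Stat5b-203, a processed transcript of 727 bases without a coding sequence, was given 7.82 TPM from only 145 reads.

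With that short transcript the effective length of Stat5b was shorter in replicate 1. The effective length over which its reads were spread was 2846 bases in replicate 1 and 4963 bases in replicate 2. In CPM Stat5b had 40.5 in replicate 1 and 120 in replicate 2, a log2 ratio of -1.50 on the centred scale defined further on, against -0.68 in TPM.

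Of the other STAT genes, Stat3, which serves interleukin-6 type receptors, had 31.1 TPM in replicate 1 and 47.2 TPM in replicate 2. The reads of Stat3 went the other way, with 3305 in replicate 1 and 2274 in replicate 2. Stat2 had 1.77 TPM in replicate 1 and 14.1 TPM in replicate 2. Stat4 and Stat6, known for their roles in T helper cells, had no read. The leading gene of the family was Stat5a in replicate 1 and Stat3 in replicate 2. Taken by the posterior mean TPM, another deposited estimate, Stat3 led in both libraries.

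**Figure D3:**
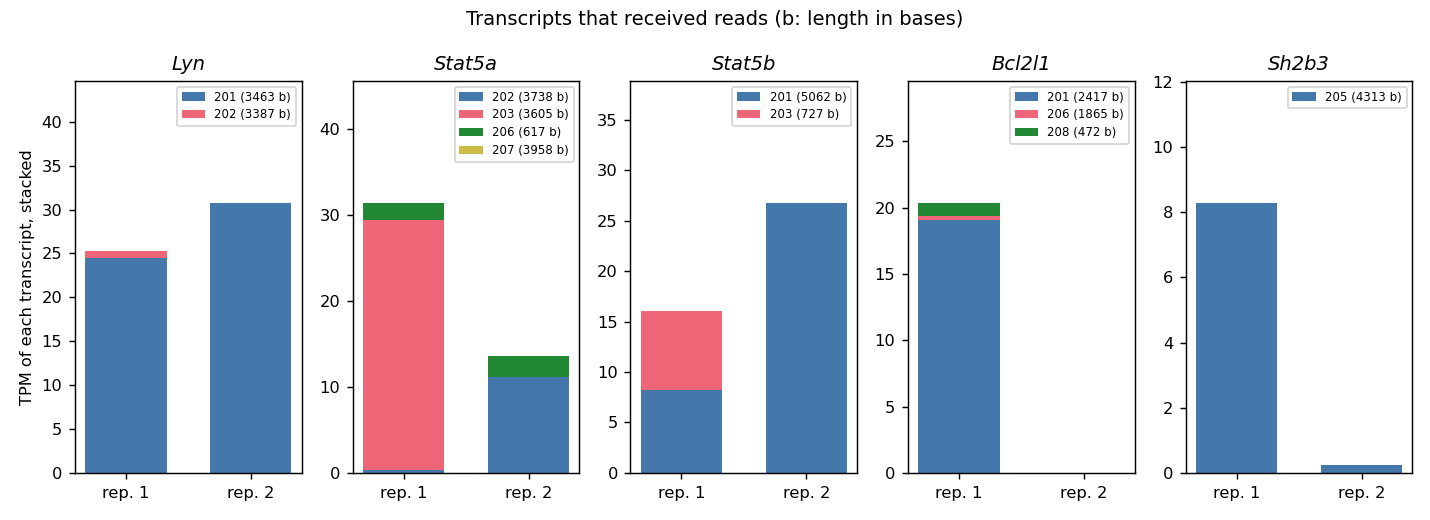
TPM of the annotated transcripts that received reads, stacked for Lyn, Stat5a, Stat5b, Bcl2l1 and Sh2b3 in replicate 1 (left bar) and replicate 2 (right bar), with the transcript number and its length in bases in each legend. Stat5a is filled by transcript 203 in replicate 1 and by transcript 202 in replicate 2, while Lyn is filled by transcript 201 in both.

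Among the target genes, Bcl2l1 differed most between the libraries. It encodes BCL-XL, the survival protein that STAT5 induces and that red cell precursors need late in their maturation. On chromosome 2 at 152780668 to 152831728 on the minus strand, replicate 1 gave it 1333 reads and 20.4 TPM, and replicate 2 none. Against a floor of 3 reads in replicate 2 this is, by read counting alone, at least 435-fold higher in replicate 1 as a share of reads. The bound allows for read counting only, since reads copied by PCR from the same molecule are not independent. The deposited credibility interval in replicate 2 ran from 0.107 to 0.601 TPM, with a posterior mean of 0.33 TPM. In replicate 1 the interval began at 19.2 TPM and the posterior mean was 20.59 TPM. By these estimates replicate 1 was still the higher, but by less than 435-fold. The main coding transcript Bcl2l1-201 held 93.7% of the gene in replicate 1. None of the distinct windows of 100 bases in its transcripts occurs in another gene. Of 1950 protein-coding genes within 1.5-fold of Bcl2l1 in replicate 1, 33.8% were under TPM 1 in replicate 2.

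Of the other survival genes of the BCL2 family, Mcl1 and Bcl2l2 were likewise higher in replicate 1. Mcl1 had 10.8 TPM in replicate 1 and 1.67 TPM in replicate 2, and Bcl2l2 had 11.2 TPM and no read. Bcl2 had no read in replicate 1 and 1 read in replicate 2, and Bcl2a1a, Bcl2a1b and Bcl2a1d had none. The family's sum was 42.3 TPM in replicate 1 and 1.67 TPM in replicate 2. Among the family's death-promoting genes, which these proteins oppose, 6 of 11 were detected in both libraries, 1 in replicate 2 only and 4 in neither. Bnip3l, which clears mitochondria from maturing red cells, had 540 TPM in replicate 1 and 430 TPM in replicate 2. Bax, an effector of cell death, had 133 and 121 TPM, and Bad, a binder of BCL-XL, had 46.3 and 130 TPM. Bbc3, Bmf and Bok had no read. In replicate 1 the level of Bax was 6.51 times that of Bcl2l1.

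Pim1, a survival kinase induced by STAT5, was low in both libraries. On chromosome 17 at 29490753 to 29496112 on the plus strand, it had 5.02 TPM from 377 reads in replicate 1 and 7.24 TPM from 540 reads in replicate 2, a mean of 6.13 ± 1.57 TPM (SD, n = 2). Replicate 2 was the higher by 1.44-fold in TPM, a difference that scaling by spike-ins nearly removed. Of its relatives, Pim2 had no read in either library, and Pim3 had none in replicate 1 and 18.3 TPM in replicate 2, where it exceeded Pim1.

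Of the 3 inhibitors, none was detected in both libraries. Cish, which encodes an inhibitor that docks on the receptor at STAT5 sites and is itself a STAT5 target, lies on chromosome 9 at 107296026 to 107302784 on the plus strand. It had no read in either library, which at this depth allows a level of up to 0.048 TPM in replicate 1 and 0.0483 TPM in replicate 2. Socs3, an inhibitor of JAK kinases, lies on chromosome 11 at 117966079 to 117970047 on the minus strand and had no read in either, which allows up to 0.102 TPM in each. These limits cover read counting only, and not RNA left uncaptured from an input of 1 cell-equivalent. The deposited credibility intervals reached higher, up to 0.587 TPM in replicate 1 and 0.589 TPM in replicate 2 for Cish and up to 0.801 and 0.812 TPM for Socs3. Both genes were thus not detected in these libraries, like the 48.7% of protein-coding genes without a read in either, and are not shown to be absent from the tissue.

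The starts of Cish and Socs3 are shown because these were the members without a read, and theirs were also the only windows of the 9 members searched that held the STAT form TTCNNNGAA, in capitals. Each stretch runs from 200 bases before the transcript start through 25 after it (RefSeq, GRCm38.p6), chr9:107296459-107296683 on the plus strand for Cish and chr11:117969342-117969566 on the minus strand for Socs3. In Cish the sites TTCCTGGAA and TTCTTGGAA begin 0 and 11 bases after the start. In Socs3 the site TTCTTAGAA begins 154 bases before it. The form, which reads the same on both strands, occurred in 8.3% of the 32851 windows of all genes.
Cish promoter: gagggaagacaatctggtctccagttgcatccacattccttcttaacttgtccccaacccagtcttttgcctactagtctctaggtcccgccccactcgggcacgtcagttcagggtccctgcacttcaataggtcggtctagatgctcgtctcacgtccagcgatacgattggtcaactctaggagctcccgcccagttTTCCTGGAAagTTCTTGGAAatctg
Socs3 promoter: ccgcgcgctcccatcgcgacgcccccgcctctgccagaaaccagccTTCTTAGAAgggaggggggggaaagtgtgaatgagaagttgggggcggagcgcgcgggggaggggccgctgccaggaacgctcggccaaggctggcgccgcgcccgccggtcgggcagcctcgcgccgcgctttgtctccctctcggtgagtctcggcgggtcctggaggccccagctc

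Sh2b3 encodes LNK, an adaptor that binds JAK2 and restrains its signal in blood cells. On chromosome 5 at 121815488 to 121837646 on the minus strand, it had 8.29 TPM from 1033 reads in replicate 1 and 0.23 TPM from 28 reads in replicate 2, with replicate 1 the higher by 36.0-fold. The mean of 4.26 TPM was smaller than its SD of 5.70 (n = 2), so no common level can be given. All reads in both libraries were assigned to Sh2b3-205, a transcript of 4313 bases that the annotation marks as a target of nonsense-mediated decay. Of 1263 protein-coding genes within 1.5-fold of Sh2b3 in replicate 1, 40.8% were under TPM 1 in replicate 2. Its relative Sh2b1, an adaptor that enhances JAK2 activity, had the opposite pattern, unread in replicate 1 and at 17.4 TPM in replicate 2, and Sh2b2 had no read in either.

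Some other SOCS genes had reads. Socs2, which restrains growth hormone signalling and is also known as a STAT5 target, had 55.9 TPM from 2159 reads in replicate 1 and 0.13 TPM from 3 reads in replicate 2. Socs6 had 9.93 TPM in replicate 1 and 16.7 TPM in replicate 2 and was the 1 gene of the 8 detected in both. Its reads went the other way, with 1742 in replicate 1 and 909 in replicate 2, so its direction depends on the unit. Socs1, an inhibitor of the interferon response, had 3.23 and 0.36 TPM, and Socs5 had no read and 0.5 TPM. Socs4 had no read, and Socs7 had 1 read in replicate 2 alone.

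The differences between the libraries were then set against those of all genes. They were expressed as the log2 ratio of TPM + 1 in replicate 1 over replicate 2, centred on its median over the 6801 genes whose mean reached TPM 10, a scale that understates the differences of low genes. Of the 5 members at that level, Stat5a at 1.18 and Bcl2l1 at 4.44 were past 2-fold, both higher in replicate 1, and Epor at -0.38, Lyn at -0.25 and Stat5b at -0.68 were within it. Over all 6801 genes 51.1% were past 2-fold, 25.8% higher in replicate 1 and 25.2% higher in replicate 2, so the members' share was near that of genes in general. Of the genes past 2-fold, 50.6% were higher in replicate 1, and 62.4% were when the ratio was centred on spike-ins. The ratio of Bcl2l1, unread in replicate 2, depends on the pseudocount. Its mean of 10.2 TPM passed the filter through replicate 1 alone. A gene unread in 1 library that passes in this way is past 2-fold by the filter itself. The 6801 genes include such genes too, so both shares are partly set by the filter. The median absolute log2 ratio was 0.68 over the 5 members and 1.03 over all 6801 genes. On the same scale the members below that level had ratios of -0.43 for Pim1, -0.78 for Jak2 and 2.94 for Sh2b3.

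The sign of the smallest differences depended on the scaling. The median gene stood 0.39 log2 units higher in replicate 1 when set against the 38 spike-ins with a mean of at least TPM 10. Centred on the spike-ins, the log2 ratio was 0.01 for Epor and 0.14 for Lyn, so neither has a settled direction. The signs of Jak2, Stat5a, Stat5b, Bcl2l1, Pim1 and Sh2b3 were the same in all 9 alternatives computed. These alternatives are not independent checks, since leaving out the filter and leaving out the centring gave the same ratios for each member. For Pim1 the ratio centred on spike-ins was only -0.03, so its direction is hardly better settled.

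**Figure D4:**
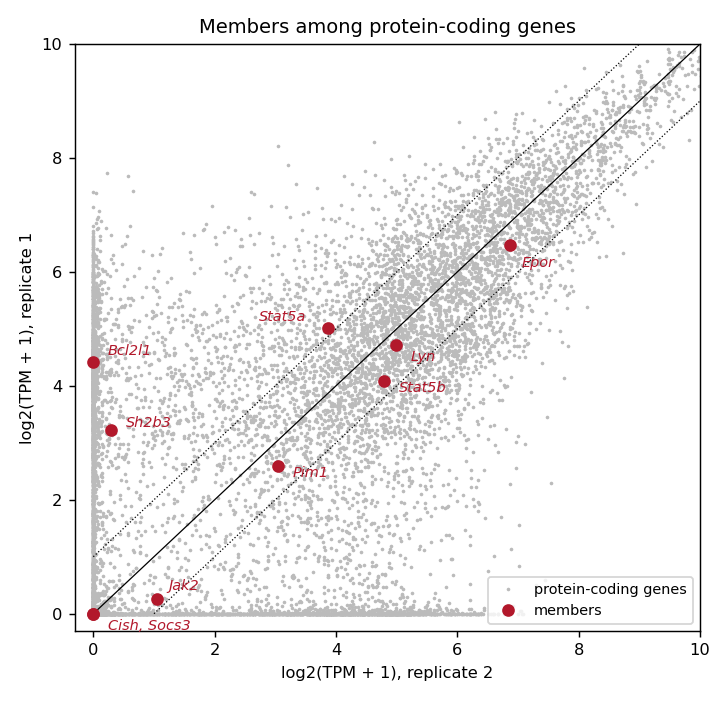
Level of each protein-coding gene in replicate 1 (vertical axis) against replicate 2 (horizontal axis) as log2(TPM + 1), in grey, with the members in red; axes end at 10, and the dotted lines mark a difference of 1 log2 unit about the line of equal levels. Epor, Lyn, Stat5b and Pim1 lie between the dotted lines, Bcl2l1 and Sh2b3 lie at the left edge, and Cish and Socs3 share the origin.

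In order of mean TPM the members ran Epor, Lyn, Stat5a, Stat5b, Bcl2l1, Pim1, Sh2b3 and Jak2, with Cish and Socs3 unread. The ranges of Epor and Lyn did not overlap, nor did those of Jak2 and the unread genes. By the credibility intervals Jak2 lay above Cish and Socs3 in replicate 2 only. In replicate 1 its interval, 0.129 to 0.271 TPM, lay within theirs, which reached 0.587 and 0.801 TPM. There its posterior mean of 0.2 TPM was below theirs, 0.26 and 0.32 TPM, so this order is not settled in replicate 1. Each of the neighbours between Lyn and Jak2 overlapped with the next in its range over the 2 libraries, so their order is not settled by these data. Across the 41 annotated transcripts of the members, 15 received a level above 0 in either library. Of the 5 members read in both libraries and annotated with at least 2 transcripts, 4 were led by the same transcript in each and Stat5a was not, against 60.2% with the same one over 5921 genes of that kind.

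The wider pathway was described with 124 further genes. Of these, 57 (46.0%) were detected in both libraries, 14 in replicate 1 only, 15 in replicate 2 only and 38 in neither. The median level over the list, as the mean of log2(TPM + 1) over the libraries, was 2.42, against 2.51 for the 10 members and 0.00718 for all protein-coding genes.

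Of the ligands, 3 of 8 were detected, each in both libraries. The fetal growth factor Igf2 had 563 TPM in replicate 1 and 398 TPM in replicate 2, the KIT ligand Kitl 62.6 and 4.09 TPM, and Igf1 4.72 and 34.6 TPM. The hormone gene Epo had no read, and neither had Csf3 nor Il3. Of 12 other receptors of blood cells and growth factors, 4 were detected in both libraries. Tfr2 had 33.4 TPM in replicate 1 and 46.6 TPM in replicate 2, and Kit, the stem cell factor receptor that acts with the erythropoietin receptor in early precursors, 29.7 and 30.7 TPM. The interferon gamma receptor chain Ifngr1 had 12.1 and 40.1 TPM. Csf2rb2 and Il3ra had no read, and Il6st, the shared chain of interleukin-6 type receptors, had 1 read in replicate 2 alone.

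Of 27 adaptors and effectors that lead from the receptor to the RAS and PI3-kinase branches, 14 were detected in both libraries, 6 in replicate 1 only, 5 in replicate 2 only and 2 in neither. The small GTPase Nras had 74.3 TPM in replicate 1 and 41.4 TPM in replicate 2, and the kinase Map2k2 had 60.4 and 40.8 TPM. Gab2, a docking protein, had 0.54 TPM and no read, and Pik3cb, a PI3-kinase subunit, no read and 0.16 TPM. Of the 16 genes of this list that averaged TPM 10 or more, 9 were past 2-fold between the libraries. This share was near the 51.1% over all 6801 genes of that level, with the same limit of the filter.

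Of 16 further negative regulators, 9 were detected in both libraries. The phosphatase genes Ptpn2, whose product acts on JAK kinases, and Ptpn1 were the highest. Ptpn2 had 53.4 TPM in replicate 1 and 92.6 TPM in replicate 2, and Ptpn1 had 78.4 and 61.0 TPM. Ptpn6, which encodes SHP-1, the phosphatase that binds the erythropoietin receptor and turns JAK2 off, was close in the libraries, with 24.0 TPM in replicate 1 and 27.1 TPM in replicate 2. It was named after its values were seen. Pias1, a SUMO ligase that restrains STAT factors, had 3.86 and 56.2 TPM. Cblb had 0.53 TPM and no read, and Dok1 and Spred1 had no read.

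Among 16 further genes that erythropoietin or STAT5 is known to regulate or that act beside them in red cell precursors, 12 were detected in both libraries and 4 in neither. The cyclin gene Ccnd3 had 218 TPM in replicate 1 and 337 TPM in replicate 2, Gata1 had 237 and 51.4 TPM, and the growth regulator Myc 215 and 62.9 TPM. The 4 undetected genes included Erfe, the hormone erythroferrone that red cell precursors release after erythropoietin, with 0.24 TPM and no read, the early response gene Egr1, with no read and 0.01 TPM, and Osm, which had no read.

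**Figure D5:**
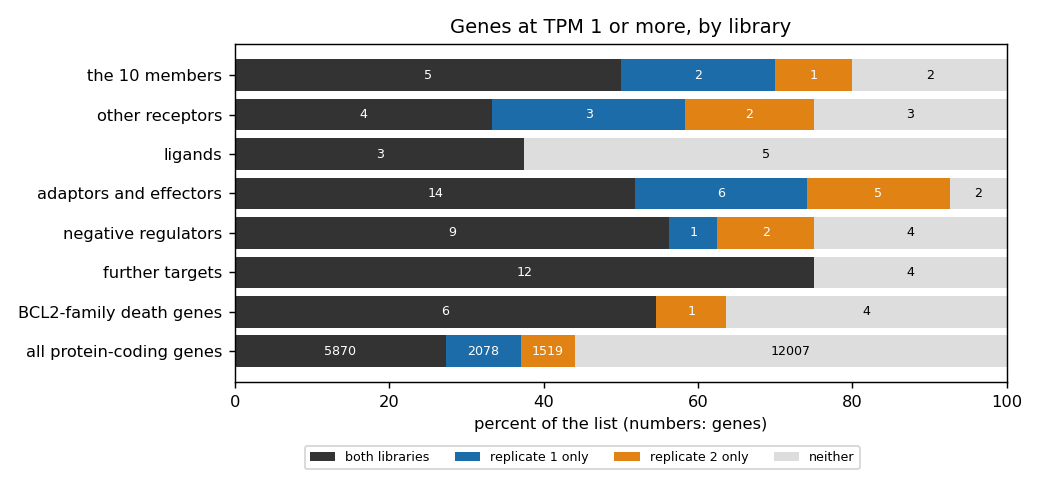
Percent of the genes of each list detected at TPM 1 or more in both libraries, in replicate 1 only, in replicate 2 only or in neither, with the number of genes printed in each bar. The 12 further targets detected are all detected in both libraries, and 5 of the 10 members are, against 5870 of 21474 protein-coding genes in the lowest bar.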

How the data were processed

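RNA of pooled liver was measured in 2 libraries, compared as replicates of 1 group. Per the file headers, the authors' deposited tables give expected counts, TPM, posterior mean TPM and FPKM per gene and transcript, with lengths in bases and credibility bounds whose level is not stated, and each transcript's deposited percent of its gene. Per the labels the assembly is mm10. The sources used here name no aligner, quantification program or strand setting. PCR copies are not marked by molecular identifiers, so floors cover counting error only. A gene without reads was limited by 3 reads, or 0.0901 CPM for replicate 1 and 0.092 CPM for replicate 2.

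Symbols, transcript names and coordinates came from GENCODE release M21, which matched 42462 of 43346 identifiers, while the tables use an earlier release, M4. Promoter windows came from RefSeq (GRCm38.p6). Over 11205 genes with at least 20 reads, chi-square per degree of freedom between the libraries was 814, far from that of a library deposited again. The members and gene lists were chosen with earlier results of these data known. Named genes were all members and their families, the 3 highest genes of each other pathway list, and up to 3 of each under TPM 1 in both libraries. Some genes named by this rule are not reported here. No test was possible with 1 group. Of the steps, the centred log2 ratio was tested on simulated libraries with counting noise only, far less than the spread between these libraries. All steps were run in Python 3.11.15 with numpy 2.4.6, pandas 2.3.3 and Biopython 1.88. Alternatives covered the deposited unit, pseudocount, filter, centring, thresholds and each library left out.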

Additional observations from a re-analysis of the deposited data

How the results depend on the processing

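The number of members detected in both libraries was 5, and lay between 5 and 7 with other thresholds. With 1 library left out, 6 to 7 members, and 71 to 72 of the further pathway genes in place of 57, were detected in the library that remained. Epor's share of the members' level, 52.2% in TPM, was 45.1% to 59.4% with 1 library left out and 35.7% in CPM, which is not scaled for length. Of the members past 2-fold, 2 in the main comparison, the number was 1 (Bcl2l1) with a pseudocount of 5 and 1 (Bcl2l1) with a 3-fold rule. It was 3 on CPM, with Stat5b added, and 3 with no filter on low values, with Sh2b3 added. The lead of the STAT family moved to Stat3 in both libraries with posterior mean TPM, which makes 4 of 8 families with the same leading gene in place of 3. Of the 8 members with reads, none changed the sign of its ratio under a change of unit, pseudocount or filter, and Epor and Lyn crossed 0 when centred on spike-ins. Pim1 kept its sign there, at -0.03. The sum of the STAT5 genes was higher in replicate 1 in TPM and higher in replicate 2 in CPM. No paired analysis was possible because there is only 1 group. The input of 1 cell-equivalent and the single library per replicate limit what can be said of a member seen in only 1 library.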
